A study of Mus musculus with 9 samples.

Results

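The messenger RNA of confluent glial cultures from nontransgenic mouse pups was read on 3 of the 9 Illumina mouse arrays of the series. These are the 3 arrays whose labels name nontransgenic glia, described here by themselves, with the 24613 probes of the array ranked by their mean signal. Nontransgenic pups carried no transgene and are labelled B6SJL 2Gur/J. Against them stand 3 arrays of SOD1-G93A glia, labelled B6SJL-Tg(SOD1*G93A)2Gur/J and carrying a human superoxide dismutase 1 transgene with an amyotrophic lateral sclerosis mutation, and 3 arrays of SOD1-WT glia, labelled B6SJL-Tg(SOD1)2Gur/J and carrying the normal human gene. In all 3 groups the cells came from pups of postnatal days 1 to 3. The nervous tissue was stripped of its meninges, dissociated with trypsin and plated at 80000 cells per mL in medium with 10% horse serum, and RNA was taken once the cells were confluent. The labels call the 3 cultures of a group biological replicates. They do not give the sex of the pups, the litters, the number of pups behind a culture, the region of the nervous system or the promoter of either transgene.

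Primary glial cultures from newborn rodents are a standard way to obtain astrocytes, the cells that clear glutamate, buffer potassium and feed neurons in the brain. Such cultures grow in serum, and neurons rarely survive in them, while microglia, the macrophages of the brain, and precursors of oligodendrocytes, the myelin-forming cells, often stay on or under the astrocyte layer. Remaining fibroblasts of the meninges, the membranes around the brain, can grow with them. The question addressed is which genes, and which cell types' marker genes, were bright, dim or below detection in the control cultures to which the mutant glia are compared.

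On the 3 nontransgenic arrays the mean signal was 231, 226 and 236 units. The background, estimated as the median signal of probes with mid-range detection p-values, was 26.6, 26.5 and 26.3 units. A probe counted as detected on an array when its detection p-value, the share of negative control beads that were at least as bright, was below 0.01. That held for 13479, 13120 and 13333 probes. The dimmest detected probes had signals between 34.8 and 35.8 units. Of the 24613 probes, 12526 (50.9%) were detected on all 3 arrays, 706 on 2, 942 on 1 and 10439 (42.4%) on none. Mean bead numbers per probe were 35.1, 34.8 and 35.4. Over the detected probes the 3 arrays correlated at 0.9933, 0.9915 and 0.9951 on the log2 scale, as a description of arrays that share most of their levels. Outside the group, SOD1-WT replicate 3 stood apart, with a mean signal of 279.6 units against 211 to 229 on the other transgenic arrays and a median bead standard error of 6.84% of the signal.

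**Figure D1:**
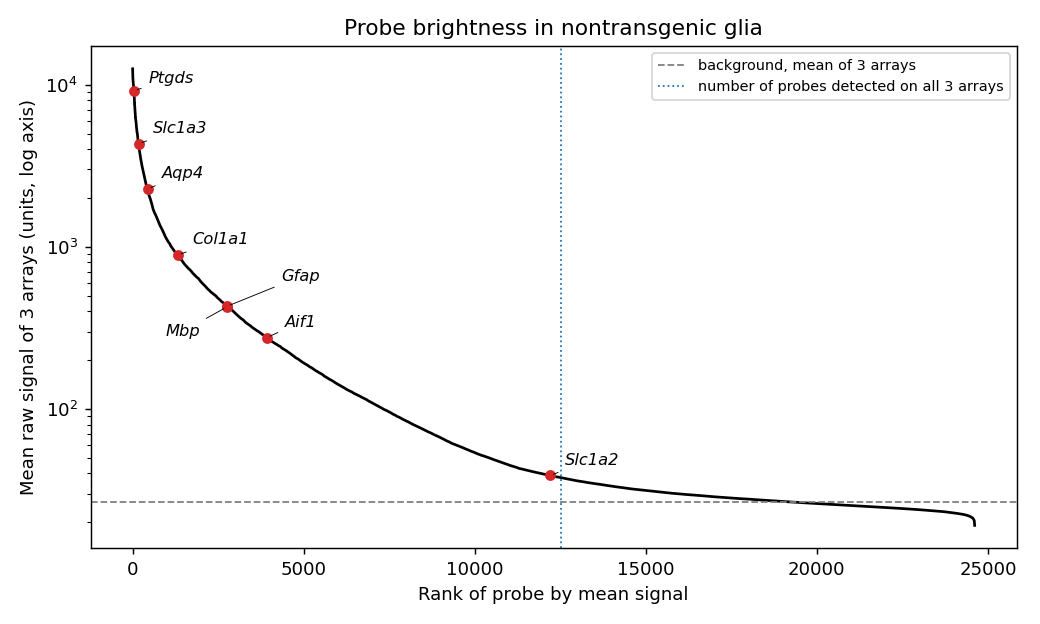
Mean raw signal of each of the 24613 probes over the 3 nontransgenic arrays (log axis, units) against its rank, with the background (dashed), the number of probes detected on all 3 arrays (dotted) and 8 marker genes as red points. Signals fell steeply over the brightest probes, with Ptgds near the bright end and Slc1a2, at 38.8 units, next to the limit of detection.

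A small number of genes carried much of the signal. The median probe had 38.3 units, the brightest 1% began at 3395 units, and 138 probes of 5000 units or more (0.561% of all) held 18.2% of the summed raw signal. The 100 brightest probes held 16.7%, 16.6% and 16.1% of the signal above background on the 3 arrays, a mean of 16.4% ± 0.337 (SD, n = 3). By their brightest probe, 9037 of 15964 genes with 1 symbol (56.6%) were detected on all 3 arrays and 6000 (37.6%) on none. Ranks here are of brightness: the signal of different probes also depends on how each probe binds, so no test was made between genes.

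Among probes with a gene symbol, which were 69 of the 100 brightest (the single brightest probe, at 12552 units, had none), the brightest gene was Mt1, metallothionein 1, a small protein that binds zinc and copper, with 11423, 12746 and 12235 units on the 3 arrays. Next came Rps20, a protein of the small ribosomal subunit (11748 ± 334 units, SD, n = 3), and Prnp, the cellular prion protein (11132 ± 231 units). Dbi, a carrier of acyl-CoA that is abundant in glia, followed with 11005 ± 571 units. The peroxidase Prdx1 (10859 units), the ferritin chains Fth1 (10679.6 units) and Ftl1 (10012 units) and the glycolytic enzyme Gapdh (10470.1 units) were of the same order. Bright genes with a cell type attached to them were Lyz2, the lysozyme of macrophages (10518, 10481 and 10673 units), Cst3, a secreted inhibitor of cathepsins (9097, 10556 and 10553 units), and Vim, the intermediate filament of immature and reactive astrocytes and of fibroblasts (9745, 8895 and 10287 units). The secreted lipid carriers Apod (10102 ± 1229.8 units) and Ptgds, prostaglandin D2 synthase (8962, 9059 and 9552 units), and the matrix proteoglycan Dcn (9069.6, 10104 and 8081 units) stood among the first 30 genes as well. The 3 arrays lay close together for most of these genes, with Apod and Dcn the widest of those given.

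By the lists used here, 23 of the 100 brightest genes were ribosomal proteins and 6 belonged to the respiratory chain or ATP synthase. The others included 5 matrix glycoproteins (Dcn, Lgals1, Igfbp5, Timp2 and Ccn2), 5 lysosomal proteins or inhibitors (Cst3, Ctsb, Psap, Ctsd and Cd63) and 5 lipid carriers or lipid enzymes (Apod, Ptgds, Scd2, Psap and Apoe). Astrocyte markers among them were Cst3, Vim, Gja1 and Aldoc, and fibroblast and meningeal markers were Ptgds, Dcn, Igf2 and Mgp. Lyz2 and Laptm5 came from the microglia and macrophage list and Acta2, smooth muscle actin, from the mural cell list. No neuronal, endothelial, myelin or ependymal marker was among the 100. A gene can stand in several lists.

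The promoters of 5 bright genes, of the dimmer astrocyte gene Gfap and of the undetected liver gene Alb are shown because they span the brightness scale and differ in their letters. Each is the 130 bases before the transcript start, from RefSeq on GRCm38.p6, written 5′ to 3′ on the strand of the gene, with capitals for a GC box (GGGCGG or its reverse complement CCGCCC) or a TATA box (TATAAA on the strand of the gene, 40 to 20 bases before the start).
Mt1: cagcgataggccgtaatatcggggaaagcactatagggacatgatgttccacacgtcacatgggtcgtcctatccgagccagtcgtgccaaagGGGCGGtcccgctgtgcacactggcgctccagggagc
Prnp: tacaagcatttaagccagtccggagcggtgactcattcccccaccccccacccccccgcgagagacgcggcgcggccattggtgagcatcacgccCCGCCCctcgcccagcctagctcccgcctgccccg
Vim: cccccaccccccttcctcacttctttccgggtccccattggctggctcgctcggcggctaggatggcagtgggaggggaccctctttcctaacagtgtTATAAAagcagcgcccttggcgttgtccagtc
Ptgds: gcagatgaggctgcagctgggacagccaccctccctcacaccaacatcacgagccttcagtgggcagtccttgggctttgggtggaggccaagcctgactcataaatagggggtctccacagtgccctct
Lyz2: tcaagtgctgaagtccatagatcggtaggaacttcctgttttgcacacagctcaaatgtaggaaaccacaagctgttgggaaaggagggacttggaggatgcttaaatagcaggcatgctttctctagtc
Gfap: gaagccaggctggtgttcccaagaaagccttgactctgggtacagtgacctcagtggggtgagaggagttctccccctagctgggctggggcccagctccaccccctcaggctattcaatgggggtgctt
Alb: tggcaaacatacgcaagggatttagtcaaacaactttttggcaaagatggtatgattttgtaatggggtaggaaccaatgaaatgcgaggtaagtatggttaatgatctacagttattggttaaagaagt
Mt1 lies at chr8:94178959-94179088, plus strand, Prnp at chr2:131909798-131909927, plus strand and Vim at chr2:13574181-13574310, plus strand. Ptgds lies at chr2:25469750-25469879, minus strand, Lyz2 at chr10:117282273-117282402, minus strand, Gfap at chr11:102897201-102897330, minus strand and Alb at chr5:90460740-90460869, plus strand. Mt1 and Prnp each had 1 GC box in the window, and Vim had the TATA box. Ptgds, Lyz2, Gfap and Alb had neither there. In the whole 300 bases (250 before to 50 after the start) the dinucleotide CG occurred 24 times in Mt1, 22 in Prnp, 11 in Vim, 3 in Gfap, 3 in Alb, 2 in Ptgds and 1 in Lyz2. Bright genes thus stood at both ends of that count, and a match or its lack says nothing about a factor.

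Astrocyte genes were present throughout. All 24 listed genes with a probe were detected on all 3 arrays, against 56.6% of all genes, and 13 of them stood among the brightest 10% of genes. The list's median brightness percentile was 94.5. Some of its members are not made by astrocytes alone, such as Vim, which fibroblasts make too, and the cells of origin were not tested. Gja1, connexin 43, the main gap junction protein of astrocytes, had 5918, 6499 and 6060.2 units, and Aldoc, the brain form of aldolase, had 5636, 5166 and 5576 units. Clu, clusterin, had 3946, 4868 and 4314 units. The glutamate transporter Slc1a3 (GLAST) was bright on every array, with 4097, 4447 and 4408 units and brightness rank 119 among genes. The astrocyte transcription factor Sox9 averaged 2893 ± 136 units, the sodium pump subunit Atp1b2 2686 ± 296 units and the water channel Aqp4 2273 ± 120.3 units (SD, n = 3 each). Gfap, the filament protein by which astrocytes are usually recognised, had 442, 403 and 443 units, rank 2280. Glutamine synthetase, Glul, averaged 387 ± 38.04 units. At the dim end stood S100b (98.1 ± 11.7 units), the fatty acid binding protein Fabp7 (40.03 ± 2.48 units) and the other glutamate transporter Slc1a2 (GLT-1) at 39.7, 37.8 and 38.8 units, close to the limit of detection.

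Genes of radial glia and neural progenitors were intermediate, with a median percentile of 79.4. Of 11 on the array 7 were detected (63.6%, against 56.6% of all genes). Nes, nestin, averaged 631 ± 44.4 units, Prom1 555 ± 50.4, the receptor Notch1 469 ± 23.6 and the stem cell factor Sox2 299 ± 8.86 units (SD, n = 3 each). Pax6, Hes5, Msi1 and Fut4 were not detected on any array.

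Microglial and macrophage genes were mostly bright. Of 23 on the array, 20 were detected on all 3 arrays (87.0%, against 56.6% of all genes) and 14 were in the brightest 10%, with a median percentile of 93.4. After Lyz2, the lysosomal membrane protein Laptm5 had 5072, 4983 and 6046 units. The complement subunits C1qc (2402, 3010.4 and 3433 units) and C1qb (1914, 2213 and 2402 units), the cathepsin Ctss (1902, 1554 and 1895 units) and the Fc receptor Fcgr3 (1411, 1587 and 2204 units) followed. The macrophage antigen Adgre1 (F4/80) averaged 1649 ± 215 units and the signalling adaptor Fcer1g 1605 ± 261 units. Aif1 (IBA1), the usual stain for microglia, was lowest on replicate 1, with 179.8, 302 and 344 units by its brighter probe and 83.9, 128 and 136 units by its other probe. Genes held to mark resting microglia were divided: the fractalkine receptor Cx3cr1 had 224, 288 and 361 units and Tmem119 103 ± 2.86 units, while Siglech was detected on 1 array and P2ry12 on none (25.4, 28.6 and 26.5 units). Of 9 genes of border-associated macrophages, which live in the meninges and around vessels, 7 were detected (77.8%, against 56.6% of all genes). Pf4 (1952, 2117 and 1938 units) and the mannose receptor Mrc1 (918, 1218 and 1424 units) led, followed by Vsig4 (454 ± 88.7 units) and Lyve1 (213, 394 and 441 units), while Cd163 and Ms4a7 were not detected. In RNA from a mixed culture, fewer cells of a type and less RNA per cell cannot be told apart.

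Markers of fibroblasts and meninges were bright, although the tissue is labelled as stripped of meninges. Of 24 genes on the array 23 were detected (95.8%, against 56.6% of all genes), 12 of them in the brightest 10%, and the median percentile was 90.9. Ptgds, which the leptomeninges and choroid plexus make in large amounts, was rank 25 and Dcn rank 27. The growth factor Igf2 had 7921, 7431 and 7558 units, the matrix inhibitor of calcification Mgp 4936, 5029 and 4953 units and the binding protein Igfbp2 3117, 3366 and 3473 units. Nupr1, a stress-induced nuclear protein, had 3931, 2414 and 2279 units and was highest on replicate 1. Fibronectin, Fn1, had 1275, 1445 and 1989.5 units and Thy1 1510.3, 1454 and 1428 units. The fibrillar collagen Col1a1 had 879.6, 812 and 979 units (rank 1078), and its partner chain Col1a2 averaged 56.5 ± 3.10 units. Foxc2, a transcription factor of the meningeal mesenchyme, had 566, 454 and 550.4 units, while the related Foxc1 was at background (21.5, 21.7 and 21.5 units). Several of these genes are also made by astrocytes or other cells of the culture, and the cells of origin were not tested.

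Genes of oligodendrocyte precursors and of myelin split into a bright few and a dim rest. Olig1, a lineage transcription factor, had 3149.9, 3713 and 4825 units, whereas Olig2 was at 29.6, 40.8 and 32.7 units and detected on 1 array. Pdgfra, the growth factor receptor of precursors and also of fibroblasts, had 904, 759 and 649.5 units. Sox10 averaged 54.8 ± 2.74, Cspg4 (NG2) 64.4 ± 1.93 and Gpr17 46.6 ± 1.37 units. In all 8 of 9 precursor genes were detected (88.9%, against 56.6% of all genes), with a median percentile of 57.9. Of the 12 myelin genes 8 were detected (66.7%, against 56.6% of all genes), and their median percentile of 47.4 was near that of all genes. Cldn11, a tight junction protein of myelin that meningeal cells also make, was by far the brightest with 4973, 4017 and 4345 units. Mbp, myelin basic protein, had 391, 469 and 418 units, Cnp 151 ± 3.93, Mal 108 ± 8.60 and Mag 93.6 ± 7.76 units. Mog (40.7 ± 1.53 units) was near the limit of detection, and Mobp, Ermn and Aspa were not detected on any array. Of the Schwann cell and neural crest list 4 of 7 were detected (57.1%, near the 56.6% of all genes). They were led by Pmp22 (4341, 4241 and 4877 units), a membrane protein that fibroblasts make too.

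Neuronal genes were divided: 10 of 22 were detected on all 3 arrays (45.5%, against 56.6% of all genes) and 11 on none. Stmn2, a tubulin-binding protein of growing axons, was the brightest with 733, 656 and 643 units, followed by Gap43 (437, 481 and 469 units), Eno2 (302, 230.4 and 237 units), the GABA-synthesising enzyme Gad1 (284, 243 and 177 units) and Reln (169, 195 and 223 units). Syn1, a synaptic vesicle protein, had 150.5 ± 22.7 units. The vesicle sensor Syt1, the neurofilaments Nefl, Nefm and Nefh and the glutamate transporters of synaptic vesicles Slc17a7 and Slc17a6 were not detected on any array. Tubb3 (44.98 ± 2.54 units) and Map2 (41.7 ± 2.36 units) were just above the limit.

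Endothelial and mural genes gave a divided picture. Of 16 endothelial genes 10 were detected (62.5%, against 56.6% of all genes). The brightest were the glucose transporter Slc2a1 (1663, 1119 and 1017 units), which glia use as well, and the receptor partner Ramp2 (606, 894 and 1042 units). The endothelial cadherin Cdh5 had 452, 385 and 402 units, but the junction protein Cldn5 and the receptors Tek, Kdr and Tie1 were not detected, nor was the efflux pump Abcb1a. Among mural genes Acta2 was bright (5618, 5400.4 and 5316 units), Tagln had 319 ± 57.2 and Pdgfrb 244 ± 11.3 units, and Des, Kcnj8, Abcc9 and Cnn1 were not detected. Several genes that define vessel walls were thus below detection, while Cdh5 and Acta2 were not.

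Of 12 genes of ciliated ependymal cells, which line the ventricles, 9 were detected (75%, against 56.6% of all genes). Dynlrb2, a dynein light chain of cilia, had 796, 867 and 869.8 units, Meig1 646, 766 and 787 units, Enkur 338 ± 36.2 and Rsph1 293 ± 38.5 units. Foxj1, the master regulator of motile cilia, was close to the limit (35.96, 41.9 and 39.03 units), and Hydin, Spag6 and Tmem212 were not detected. Of 11 choroid plexus genes 7 were detected (63.6%, against 56.6% of all genes). The water channel Aqp1 led with 1338, 753 and 613 units, a wide spread, and Sostdc1 had 354 ± 14.5 units. The defining choroid plexus product Ttr, transthyretin, was near the limit (40.4, 36.7 and 39.4 units), and Kl, Kcne2, Slc4a5 and F5 were not detected.

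Genes of cells that a glial culture should lack were mostly at background. None of 6 erythroid and none of 10 lymphocyte genes was detected on all 3 arrays, where 56.6% of all genes were. Their summed signals were 177, 175 and 185 units and 278, 279 and 261 units, that is near background for each gene. Of 13 muscle genes 1 was detected (Tnni3, 55.5 ± 2.38 units), of 10 photoreceptor and germ cell genes 2 (Prm2 with 51.3 ± 11.6 and Zp3 with 40.1 ± 2.79 units), and of 15 liver genes 4, led by Apoa1 (124 ± 1.63 units). Albumin, Alb, was at 24.2, 23.97 and 23.2 units. The Y-linked genes Kdm5d, Uty and Eif2s3y were not detected on any nontransgenic array. No probe was matched to Xist or Ddx3y.

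**Figure D2:**
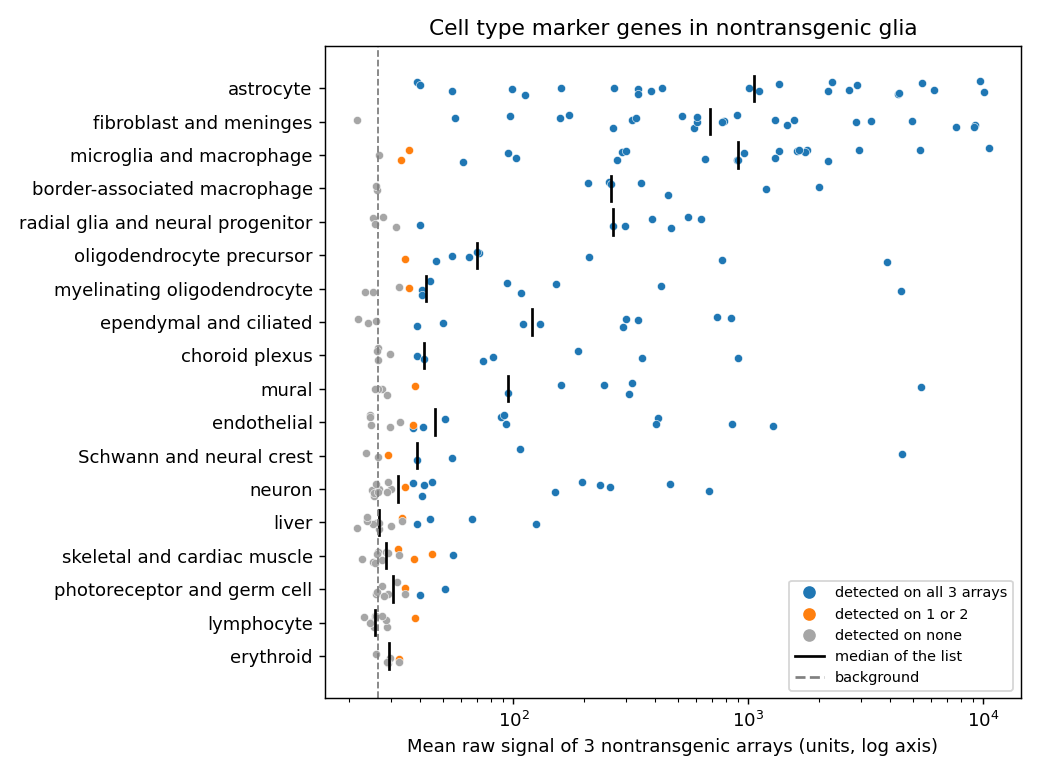
Mean raw signal over the 3 nontransgenic arrays (log axis, units) of each marker gene, by its brightest probe, in 18 cell type lists, with the median of each list as a bar and the background as a dashed line. Astrocyte, fibroblast and meningeal, and microglial medians lay at 1056, 687 and 904 units, and the lymphocyte and erythroid genes clustered at background.

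The machinery common to all cells was bright. The detected share of all genes, for comparison with the counts below, was 56.6%. Of 52 ribosomal protein genes 47 were detected with a median percentile of 99.1, and all 13 translation factor genes were detected, led by the elongation factor Eef1a1 (9837, 9673 and 10405 units). In energy metabolism 66 of 73 respiratory chain and ATP synthase genes and 14 of 16 glycolytic genes were detected. Cytochrome oxidase subunit Cox6c averaged 6648 ± 318 units and the ATP synthase subunit Atp5g3 6468 ± 285 units, beside Ldha, lactate dehydrogenase A, at 5699, 4961 and 4662 units. All 10 genes of metal and iron handling were detected, among them Mt3, the brain metallothionein (7711 ± 176 units), and the haem oxygenase Hmox1 (1875, 2042 and 2566 units). Of 25 antioxidant genes 24 were detected: after Prdx1 came glutathione peroxidase Gpx1 (7190.4, 6645 and 7976 units) and the glutathione transferases Gstm1 (4727 ± 519.9 units) and Gsta4 (3138 ± 418 units). Mouse Sod1 itself had 2330.5, 1790.4 and 1952 units. Txn1 was the remaining antioxidant gene and was at background.

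Not every gene at background can be read as silent. Of 154 genes of the ribosomal, translation, glycolytic and respiratory lists, which nearly all cells use, 13 (8.44%) were not detected on any array, among them Rps19 (27.5 units), Rpsa (25.8 units) and the glycolytic kinase Pgk1 (27.2 units), although a few are forms that other tissues use. Of 3728 genes with several probes, 1197 were detected on all 3 arrays by 1 probe and on none by another, and for 489 the brightest probe was at least 10 times as bright as the dimmest. A gene is therefore called here not detected by its probe, not absent. The same holds for the actin-binding thymosin Tmsb4x (23.2 units) and the chaperone Calr (28.3 units), which were at background.

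Lysosomal genes were bright, with 18 of 19 detected (94.7%, against 56.6% of all genes) and 15 in the brightest 10%. Cathepsin B, Ctsb, had 8799, 8989 and 8955 units, prosaposin, Psap, 6528, 7585 and 8866 units and cathepsin D, Ctsd, 4459, 4614 and 5361 units. Of 16 lipid carriers and lipid enzymes 15 were detected, including the desaturase Scd2 (8986, 7863 and 8431 units) and apolipoprotein E, Apoe (4991, 5459 and 5938 units), the main lipid carrier that astrocytes secrete. Cholesterol synthesis was represented by 15 of 17 genes, led by Hmgcs1 (3105, 3223 and 3607 units) and Msmo1 (2917 ± 57.5 units). Of 19 chaperone genes 17 were detected, with the cyclophilin Ppia (10320.1 ± 584 units) and the small heat shock protein Cryab (4177, 3244 and 3208 units) in front.

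The matrix around the cells was represented by 32 of 33 matricellular and glycoprotein genes, 18 of them in the brightest 10%. After Dcn, the lectin Lgals1 had 6495, 6135 and 7301 units, the binding protein Igfbp5 5405, 5756 and 7135 units, the protease inhibitor Timp2 5328, 5282 and 5575 units and Ccn2 (CTGF) 6219, 4698 and 4779 units. Of 37 collagen chains 21 were detected, a share of 56.8% that was near the 56.6% of all genes, and 13 on no array. The basement membrane chains Col4a2 (2086, 2040.3 and 2161 units) and Col4a1 (1341, 1484 and 1652 units) were the brightest, ahead of Col6a1 (1303 ± 166 units), Col8a1 (1076 ± 23.5 units) and Col18a1 (979 ± 184 units). Chains of cartilage such as Col11a1 and Col9a2 were not detected. Among gap junction genes 6 of 9 were detected (66.7%, against 56.6% of all genes), with Gjb6 (923, 926 and 1159 units) and Gjb2 (552, 480.2 and 698 units) after Gja1.

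Genes of secreted immune factors were mostly detected. Of 31 chemokine and cytokine genes 24 were detected (77.4%, against 56.6% of all genes). Of these genes 3 were in the brightest 10% (9.68%, against 10.0% of all genes), and the median percentile was 64.9. The brightest were Ccl9 (1297, 1257 and 1556 units), Ccl4 (820.5, 1019 and 1355 units) and Ccl3 (526, 569.9 and 902 units). All of these are attractants of leukocytes that macrophages make. The alarmin Il33 averaged 566 ± 27.7 units and Ccl7 377, 566 and 606 units. Il6 (64.6 ± 7.44 units) and Il1b (45.4 ± 4.62 units) were low, Tnf was detected on 2 arrays (29.1, 37.6 and 40.02 units), and Cxcl10, Il10, Ifnb1, Csf2 and Cxcl5 were not detected. Complement genes were detected in 10 of 12 cases (83.3%), including the inhibitor Serping1 (3117, 2808 and 2754 units). Beta-2 microglobulin, B2m, the light chain of MHC class I, had 5650.1, 6001 and 5726 units. Of that list 8 of 11 genes were detected (72.7%), and the heavy chain gene H2-K1 had 223 ± 10.8 units.

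Of 30 trophic factor genes 24 were detected (80%, against 56.6% of all genes). Igf2 and Ccn2 led, followed by pleiotrophin, Ptn (2697, 2765 and 2799.8 units), Igf1 (879.6, 907 and 1373 units), Vegfa (1234, 985 and 639.6 units) and Bmp4 (830.5, 633 and 691 units). The motor neuron survival factor Gdnf was low (71.5 ± 3.99 units), and Cntf, Gmfb, Fgf7 and Fgf10 were not detected on any array. Of 31 genes known to rise in reactive astrocytes 24 were detected (77.4%, against 56.6% of all genes), 11 of them in the brightest 10%. Serpina3n had 3330.4, 3690.3 and 3656 units and Hspb1 3425, 3189 and 2655 units. Emp1 had 2661 ± 324 units and Lcn2, lipocalin 2, 1716, 1937 and 1824 units. Cell cycle genes were detected in 26 of 30 cases (86.7%, against 56.6% of all genes), with a median percentile of 61.1. The G1 cyclins Ccnd1 (4201, 4673 and 4822 units) and Ccnd2 (2566 ± 89.02 units) and the inhibitor Cdkn1a (2079.9, 1859 and 2098 units) were bright. Genes of DNA replication and mitosis were mostly detected at lower signals, among them Mcm6 (286 ± 12.8 units), Cdk1 (196 ± 20.1 units), Cdc20 (88.6 ± 4.42 units), Birc5 (81.5 ± 3.81 units), Top2a (73.2 ± 10.8 units) and Plk1 (69.1 ± 7.07 units), while Ccna2, Ccnb2, Bub1 and Ube2c were the 4 not detected. Of 40 genes that mark regions of the neural tube 13 were detected (32.5%, below the 56.6% of all genes). Zic1 was the brightest (1644, 1483 and 1446 units), followed by Otx1 (379 ± 50.8 units). Zic2 and Lhx2 averaged 122 ± 6.10 and 96.9 ± 5.05 units, Hoxb4 was detected at 61.1 ± 4.40 units, and Emx2, Pax6 and most other Hox genes were at background.

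The 3 nontransgenic cultures resembled each other closely. After normalisation the median range over the 3 arrays was 0.21 on the log2 scale for the 12526 detected probes, 93.7% of them had a range under 0.5, and 33 (0.263%) had a range of 1 or more. On the raw signal, without normalisation or background subtraction, the median coefficient of variation between cultures was 7.20%. Replicate 1 was the array farthest from the other 2 for 39.6% of probes, and for 18 of the 33 widest, on 14 of them as the highest. Without replicate 1, 3 probes had a range of 1 or more. Without replicate 3 there were 16 and without replicate 2 there were 28.

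The widest range belonged to Fxyd2, a regulator of the sodium pump, with 224, 36.5 and 50.8 units by 1 probe and 154, 38.2 and 44.9 units by the other. Both probes were high on replicate 1 only, with ranges of 3.09 and 2.44 log2. Slco4a1, an organic anion transporter, had 274, 75.6 and 85.9 units, and Ifitm6, of the interferon-induced transmembrane family, had 239.9, 94.9 and 106 units. The betaine transporter Slc6a12 had 115, 49.4 and 48.2 units and the glutathione transferase Gsta2 96.6, 49.7 and 37.5 units. These were again high on replicate 1. So were Defa24 and Defa31, genes of the alpha-defensin family, with 216, 150.4 and 78.3 units for the first and 386, 241 and 154 units for the second, whose near-identical copies make the assignment of a probe uncertain. Marco, a scavenger receptor of macrophages, ran the other way, with 301, 642 and 854 units and its lowest value on replicate 1. Fbxw5 was low on replicate 2 (412, 108 and 363 units). Among genes outside the 10 widest, chosen after their values were seen, Adm (1588, 1087 and 747 units), Slc2a3 (699.7, 491 and 326 units), Vegfa and Aqp1 were also highest on replicate 1, where Lyve1 and Plau (343, 559 and 726 units) were lowest.

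In some lists most members were highest on the same array. Of all 12526 detected probes 36.9% were highest on replicate 1, 30.3% on replicate 2 and 32.8% on replicate 3. Of 20 detected microglial genes 16 were highest on replicate 3, where the list summed to 39085 units against 32618 and 33562 on replicates 1 and 2, and 6 of 7 genes of border-associated macrophages were highest there too. Of 9 ependymal genes 8 were highest on replicate 2. Of 24 antioxidant genes 19 and of 66 respiratory chain genes 43 were highest on replicate 1, where their median deviations from the mean of the 3 arrays were small, at 0.11 and 0.06 log2. The median range within these lists, from 0.16 log2 for the respiratory chain to 0.51 for border-associated macrophages, stood against 0.21 for all detected probes. What set the arrays apart in these respects was not tested.

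**Figure D3:**
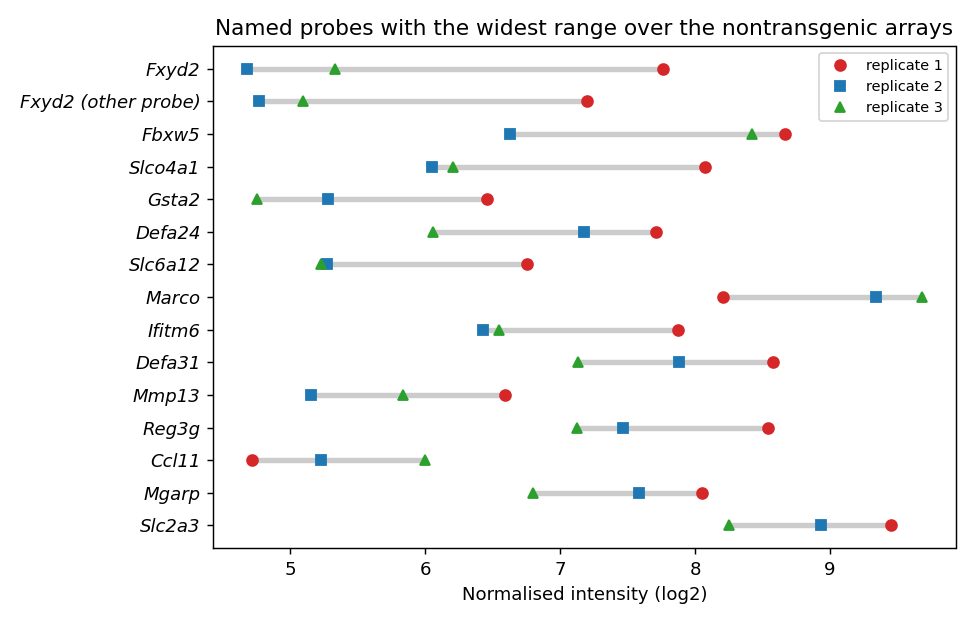
Normalised log2 intensity on each of the 3 nontransgenic arrays for the 15 named probes with the widest range, the array shown by colour and shape and the range by a grey bar. Replicate 1 was the highest array for 13 of the 15, and both Fxyd2 probes were high on it alone.

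To ask which of these levels were particular to the nontransgenic cultures, they were set against both transgenic groups in 1 limma fit of all 9 arrays, as the nontransgenic mean minus the mean of the SOD1-G93A and SOD1-WT means. Of 13972 probes kept, 2850 (20.4%) passed an adjusted p of 0.05, 1353 higher in nontransgenic glia (9.68%) and 1497 lower (10.7%). On 978 probes (7.0%) all 3 nontransgenic arrays lay above the 6 others as well, and on 976 (6.99%) below, and of these 194 and 116 differed 2-fold or more. These p-values set the difference between groups against the spread between replicate cultures of a group. The litters behind the cultures are unknown, so variation between litters may not be covered. Without SOD1-WT replicate 3, the array that stood apart, 3191 passed. Nontransgenic arrays correlated with SOD1-G93A arrays at 0.979 to 0.985 and with SOD1-WT arrays at 0.954 to 0.968. Against SOD1-G93A glia alone, a comparison that shares the nontransgenic arrays, 1760 probes passed (12.6%), 901 higher and 859 lower in nontransgenic glia.

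Most listed fibroblast and meningeal genes were higher in nontransgenic glia, a direction in which 9.68% of all kept probes passed. The lists were chosen with earlier results of these data known. The list counts here and below therefore describe the chosen members only. Mgp, Ptgds and Foxc2 of this list were also among the 10 largest rises. Of 23 tested, 20 were higher, 0 lower and 3 did not pass, with a median difference of 1.07 log2 against -0.01 over all kept probes, and 20 were higher whichever single array was left out. Against SOD1-G93A glia alone 13 were higher, 3 lower and 7 did not pass, with a median of 0.40. The summed signal of the list was 48575, 47304 and 46914 units on the nontransgenic arrays, 36591, 37919.7 and 35989 units on the SOD1-G93A arrays and 13631, 14052 and 17179 units on the SOD1-WT arrays, without overlap between groups. Mgp had log2 intensities of 12.23, 12.34 and 12.27 in nontransgenic glia, 10.47, 10.75 and 10.66 in SOD1-G93A glia and 5.84, 6.47 and 6.27 in SOD1-WT glia, a difference of 3.87 ± 0.12 (SE, limma adjusted p = 9.17e-11). Ptgds stood at 13.12, 13.17 and 13.20 in nontransgenic glia, 12.86, 12.97 and 12.89 in SOD1-G93A glia and 6.88, 6.85 and 6.86 in SOD1-WT glia, so that SOD1-WT glia alone were far lower. Its difference was 3.28 ± 0.08 (limma adjusted p = 4.11e-12), and against SOD1-G93A glia alone it did not pass (limma adjusted p = 0.0771). Col1a1 had 9.78, 9.70 and 9.87 in nontransgenic glia, 9.22, 9.11 and 9.23 in SOD1-G93A glia and 6.80, 6.77 and 7.03 in SOD1-WT glia, a difference of 1.75 ± 0.09 (limma adjusted p = 6.75e-09). Igfbp6, another binding protein of insulin-like growth factors, differed by 3.25 log2. Foxc2 had 9.15, 8.82 and 9.02 log2 in nontransgenic glia and 7.39, 7.53 and 7.18 in SOD1-G93A glia and was not detected on any SOD1-WT array, so that it was at least 21.1-fold brighter in nontransgenic than in SOD1-WT glia.

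Border macrophage, gap junction and some cell cycle genes were higher in nontransgenic glia than in the mean of both transgenic groups. Of all kept probes 9.68% were higher and 10.7% lower. Of 7 genes of border-associated macrophages 5 were higher and 0 lower, with a median of 0.85. Against SOD1-G93A glia alone 2 were higher, 0 lower and 5 did not pass, with a median of 0.10. The list summed to 4178, 4843 and 5282 units on nontransgenic arrays. It overlapped with SOD1-G93A arrays, at 4734, 5110 and 4179 units, and SOD1-WT arrays had 2948, 2897 and 3211 units. Vsig4 had group means of 8.77 (nontransgenic), 8.60 (SOD1-G93A) and 5.22 log2 (SOD1-WT) (limma adjusted p = 7.31e-08) and Cbr2 7.92 (nontransgenic), 7.15 (SOD1-G93A) and 5.70 log2 (SOD1-WT) (limma adjusted p = 3.58e-07). Vsig4 did not pass against SOD1-G93A glia alone (limma adjusted p = 0.401). Of 6 gap junction genes 4 were higher and 0 lower (3 and 0 against SOD1-G93A glia alone). Gjb2 had log2 intensities of 9.11, 8.90 and 9.37 in nontransgenic glia, 7.95, 8.01 and 7.72 in SOD1-G93A glia and 6.02, 6.07 and 5.72 in SOD1-WT glia, and Gjb6 of 9.85, 9.88 and 10.12 in nontransgenic glia, 8.50, 8.51 and 8.49 in SOD1-G93A glia and 8.58, 8.39 and 8.10 in SOD1-WT glia. Cldn11 differed by 2.51 ± 0.09 log2, with the nontransgenic arrays above all 6 others. Of the 9 myelin genes tested 3 were higher and 1 lower, with a median of 0.07. Of 11 endothelial genes tested 4 were higher and 2 lower, with a median of 0.11. The endothelial cadherin Cdh5 averaged 8.65 log2 in nontransgenic and 7.69 in SOD1-G93A glia and was not detected on any SOD1-WT array, at least 16.6-fold brighter in nontransgenic than in SOD1-WT glia. Of 26 cell cycle genes 10 were higher and 0 lower, but this count ranged from 4 to 13 when single arrays were left out. It was 6 without nontransgenic replicate 1, 4 without nontransgenic replicate 2 and 6 without SOD1-G93A replicate 2. The 2 with the smallest p, Cdkn2b (0.98) and Cdkn2a (0.72), are inhibitors of proliferation. Cdkn2b had group means of 10.25 (nontransgenic), 10.04 (SOD1-G93A) and 8.50 log2 (SOD1-WT), and it did not pass against SOD1-G93A glia alone (limma adjusted p = 0.323).

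Ciliated cell genes were lower in nontransgenic glia, a direction in which 10.7% of all kept probes passed. All 9 ependymal genes tested passed in that direction, also when any single array was left out, with a median of -0.96 (8 of 9 and -0.40 against SOD1-G93A glia alone). Dynlrb2 had log2 intensities of 9.64, 9.79 and 9.70 in nontransgenic glia, 10.44, 10.56 and 10.41 in SOD1-G93A glia and 11.61, 11.62 and 11.63 in SOD1-WT glia, a difference of -1.33 ± 0.08 (limma adjusted p = 3.78e-08). Mia differed by -1.53. Of 7 choroid plexus genes 5 were lower (4 to 5 when single arrays were left out), such as the folate receptor Folr1 (-1.95) and Otx2 (-1.77), and 2 were higher. Aqp1 was among those, at 10.36, 9.58 and 9.17 in nontransgenic glia, 7.88, 7.74 and 7.86 in SOD1-G93A glia and 5.20, 5.11 and 5.45 in SOD1-WT glia, with its nontransgenic arrays spread over more than 1 log2. Ttr, counted among the lower genes, had group means of 4.81 (nontransgenic), 7.74 (SOD1-G93A) and 4.90 log2 (SOD1-WT). Its SOD1-G93A arrays were uneven, at 9.12, 8.15 and 5.95. The call (limma adjusted p = 0.0297) was lost in 8 of 18 alternatives. The summed ependymal signal was 2619, 3040.1 and 3068 units on nontransgenic, 3921, 4394 and 3717 on SOD1-G93A arrays and 8661, 8204 and 9825 units for SOD1-WT.

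Astrocytes and microglia gave no common direction. Of 24 astrocyte genes 4 were higher, 6 lower and 14 did not pass, with a median of -0.08. That is a larger share past the threshold than the 20.4% of all kept probes. Without nontransgenic replicate 1, 2 were higher and 4 lower, and over all single arrays left out 2 to 6 were higher and 4 to 9 lower. The members with the smallest p were higher, with all nontransgenic arrays above the 6 others. They were Gjb6, by 1.52 ± 0.11 (limma adjusted p = 1.73e-07), and Aldh1a1, by 0.78 ± 0.08 (limma adjusted p = 4.99e-06). Aldh1a1 did not pass against SOD1-G93A glia alone (limma adjusted p = 0.179). Gfap had 8.78, 8.65 and 8.71 in nontransgenic glia, 9.66, 9.52 and 9.23 in SOD1-G93A glia and 9.70, 9.37 and 10.01 in SOD1-WT glia, a difference of -0.87 ± 0.13 (limma adjusted p = 2.35e-04), and Aqp4 differed by -0.66 ± 0.09 (limma adjusted p = 1.06e-04), all nontransgenic arrays below the 6 others in both cases. Slc1a3 was lower, with a difference of -0.36 ± 0.09 (limma adjusted p = 0.00858), a call that was lost without nontransgenic replicate 1 and against SOD1-G93A glia alone. Mbp was higher by 0.44 ± 0.09 (limma adjusted p = 0.00422). Of 21 microglial genes 3 were higher, 2 lower and 16 did not pass, with a median of -0.005. Their share past the threshold was near the 20.4% of all kept probes. Aif1 gave -0.03 ± 0.16 and, by its other probe, -0.07 ± 0.21 log2, and neither passed (limma adjusted p = 0.919 and 0.856). The fractalkine receptor Cx3cr1 was lower, with a difference of -0.85 ± 0.13 (limma adjusted p = 2.17e-04). Mouse Sod1 gave -0.25 ± 0.09 (limma adjusted p = 0.0714) and did not pass, but it passed in 3 of 18 alternatives (robust priors, array weights, and without nontransgenic replicate 1), where limma's lowest adjusted p was 0.0194.

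Large differences were also found for genes outside the cell type lists. Thsd4, a fibrillin-binding matrix protein, had 10.02, 9.94 and 9.90 in nontransgenic glia, 7.06, 7.11 and 7.17 in SOD1-G93A glia and 5.81, 6.01 and 5.86 in SOD1-WT glia, with every transgenic array lower. Entpd3, an ectonucleotidase, had group means of 7.77 (nontransgenic), 4.67 (SOD1-G93A) and 4.24 log2 (SOD1-WT) and was detected on all 3 nontransgenic, 2 SOD1-G93A and 0 SOD1-WT arrays. Reg3g, a secreted C-type lectin, was detected on all 3 nontransgenic arrays (377, 183 and 153 units) but on no transgenic array, which makes it at least 8.59-fold brighter in nontransgenic glia. It was kept for testing through the nontransgenic arrays alone, so no p is given. Ranbp3l had group means of 9.18 (nontransgenic), 7.93 (SOD1-G93A) and 4.71 log2 (SOD1-WT) and was detected on 2 of the 3 SOD1-WT arrays. Fam180a averaged 9.13 log2 in nontransgenic and 8.43 in SOD1-G93A glia and was not detected in SOD1-WT glia, at least 23.03-fold brighter in nontransgenic than in SOD1-WT glia. In the other direction, Pttg1, the securin of mitosis, was not detected on any nontransgenic array and was at least 14.9-fold brighter in transgenic glia, Tmem68 at least 11.1-fold, the platelet and leukocyte protein Plek at least 7.26-fold and the ubiquinone synthesis gene Coq2 at least 5.79-fold. For these bounds the dim arrays were set, array by array, at their lowest detected signal or the probe's own signal, whichever was higher. Trim11 (-2.42), Glycam1 (-2.27) and the ciliary motor Kif3a (-2.27, and -0.86 by its other probe) were also below all 6 others. Sparc, a matricellular protein that astrocytes secrete, had 7.86, 7.87 and 7.91 in nontransgenic glia, 10.70, 11.02 and 10.89 in SOD1-G93A glia and 11.59, 11.64 and 10.90 in SOD1-WT glia, a difference of -3.25 ± 0.14 (limma adjusted p = 1.76e-09).

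Chemokines illustrate how much rests on the probe. By 1 probe Ccl12 was not detected on any nontransgenic array (29.7, 30.7 and 34.8 units) and was at least 29.5-fold brighter in transgenic glia. By the other it had 358, 488 and 452 units in nontransgenic glia and was higher there by 0.59 log2 (limma adjusted p = 0.0033), so the probes went opposite ways and no direction can be given for the gene. Cxcl10 was at least 3.42-fold brighter in transgenic glia and Ccl2 was lower in nontransgenic glia, with a difference of -1.99 ± 0.13. Over the 27 chemokine and cytokine genes tested 5 were higher and 6 lower, where 9.68% of all kept probes were higher and 10.7% lower. H2-T23, a nonclassical MHC class I gene, had 8.81, 8.67 and 8.52 in nontransgenic glia, 4.46, 4.72 and 4.30 in SOD1-G93A glia and 8.94, 9.03 and 9.11 in SOD1-WT glia, low in SOD1-G93A glia alone. Of the Y-linked genes Kdm5d was tested: it was not detected on any nontransgenic or SOD1-G93A array and stood at 6.94, 7.03 and 6.88 log2 on the SOD1-WT arrays. The sex of the pups is not labelled, and its part in the differences was not tested.

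**Figure D4:**
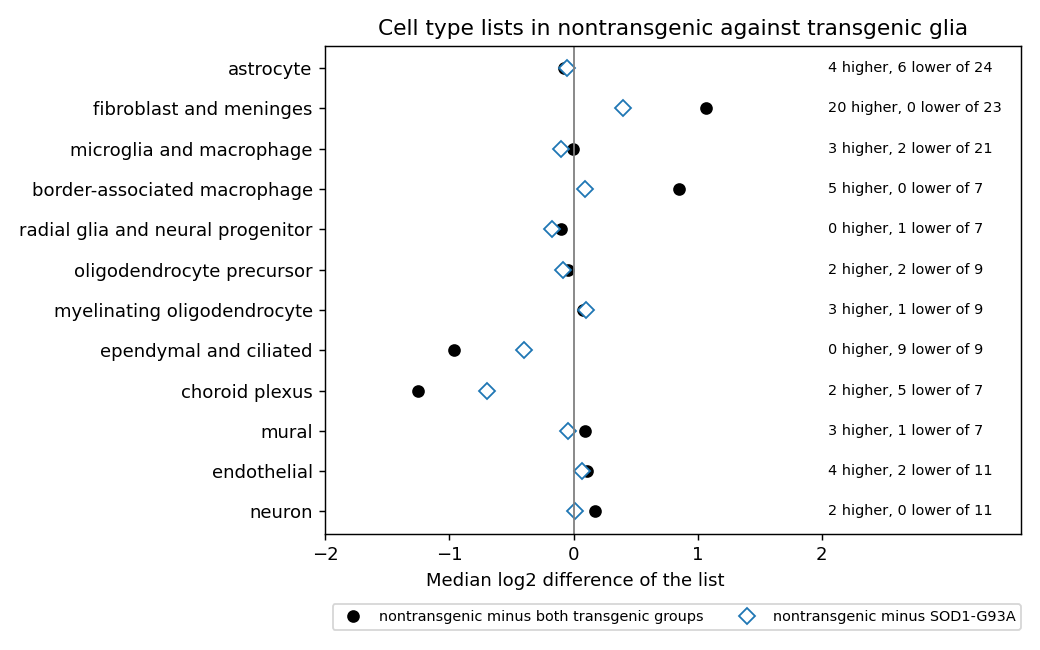
Median log2 difference of 12 cell type lists, as nontransgenic minus both transgenic groups (black points) and nontransgenic minus SOD1-G93A alone (open diamonds), with the counts of tested genes higher and lower in nontransgenic glia for the first. Fibroblast and meningeal genes were at 1.07 and 0.40, ependymal genes at -0.96 and -0.40, and astrocyte genes at -0.08 and -0.05.

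The letters of promoters differed between bright and dim genes of the nontransgenic cultures. RefSeq promoters of 300 bases on GRCm38.p6 were matched for 12849 of 15964 genes, and a gene with several starts counted once if any held the motif. A GC box on either strand was present in 67.8% of genes detected on all 3 arrays (4966 of 7324), in 34.5% of genes detected on none (1652 of 4795) and in 54.2% of all. In 10 classes of equal size by mean signal, the share was 27.9% in the dimmest, 54.7% in class 5 and 70.0% in the brightest, and it lay between 69.6% and 71.6% in classes 7 to 10. Among the 100 brightest genes it was 53.6% (45 of 84). The TATA box went the other way, with 1.57% of detected and 4.63% of undetected genes and 2.80% of all, but it was present in 5 of the 84 brightest (5.95%), Vim among them, and in 8 of 24 chemokine and cytokine genes (33.3%). The median count of CG was 22 in detected and 6 in undetected genes. The sequence CCGGAAG or its reverse complement CTTCCGG was present in 15 of 42 ribosomal protein genes (35.7%), 19.4% of detected, 6.82% of undetected and 14.1% of all genes. Genes detected on all 3 arrays more often had several starts (21.2%) than those detected on none (12.8%); among genes with 1 start the GC box shares were 65.0% and 30.9%. These are descriptions of letters, and lists were not tested.

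**Figure D5:**
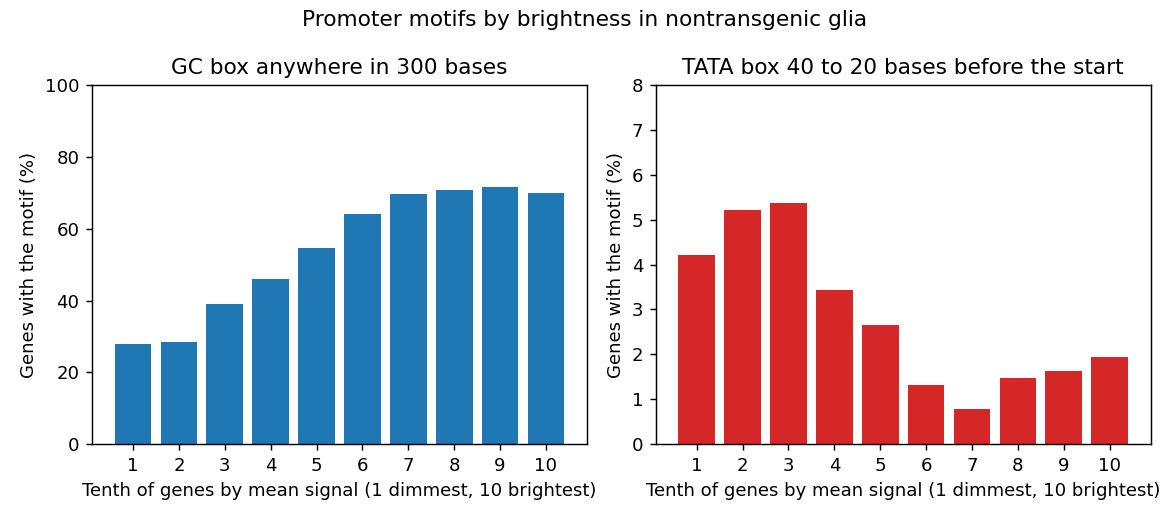
Share of genes (percent) whose 300-base promoter held a GC box (left) or a TATA box 40 to 20 bases before the start (right), in 10 classes of equal size by mean signal in nontransgenic glia, class 1 the dimmest. The GC box share was 27.9% in class 1 and 70.0% in class 10, and the TATA box share peaked at 5.37% in class 3 and was lowest, 0.778%, in class 7.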

How the data were processed

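Messenger RNA of 9 glial cultures was read on an Illumina mouse array. Per the file headers, the deposited raw table holds, per probe, a mean bead intensity, its standard error, a bead number and the detection p-value. BeadStudio was used, per the submitters' processing notes, and the genome build is not given in the sources used here. A second deposited table holds the authors' normalised intensity, used as an alternative after adding 11.1 before log2. Ranks and detection use raw intensity of the 3 nontransgenic arrays, with each gene read by its brightest probe. For spread and group differences, neqc in limma 3.58.1 (R 4.3.3, offset 16) gave log2 intensities. Kept were 13972 probes that were detected (p under 0.01) on 3 or more of the 9 arrays. The limma tests were two-sided and adjusted by the Benjamini-Hochberg method over these probes, with 6 residual and 7.52 prior degrees of freedom. Other steps used Python 3.11.15, pandas 2.3.3, numpy 2.4.6 and matplotlib 3.10.9. In the platform annotation 20984 of 24613 probes had 1 symbol, 1 had several and 3628 had none.

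The 42 gene lists and the members were chosen with earlier results of these data known. The rule named the 30 brightest genes, up to 8 bright and 6 undetected members of a list, the markers Gfap, Aqp4, Slc1a3, Aif1, Mbp, Col1a1 and Ptgds, the 10 widest probes, the 10 largest differences each way, for each list at most 2 members of lowest p, and Sod1. Other members, dim or detected on some arrays, were named after their values were seen. In data simulated for the group comparison (13972 probes, 200 shifted), log2 shifts of 0.5, 1 and 2 were recovered for 60.5%, 97.5% and 100% of shifted probes. Replicate numbers are not stated to mark a litter or batch, so they were not taken as pairs. Same-numbered arrays of different groups correlated in their deviations at -0.02 to 0.15, and differently numbered ones at -0.20 to 0.19. Precision rests on 3 arrays a group.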

Additional observations from a re-analysis of the deposited data

How the results depend on the processing

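The number of arrays, 3 a group, and probes near background limit these values. Detected probes numbered 12154 to 13309 with detection p of 0.001 and 0.05, and 12715 to 12815 without single arrays. The share of the 100 brightest probes was 14.6% with no background subtraction and 16.3% to 16.6% without single arrays, and 96 to 100 of these probes stayed in the 100 brightest. Of the lists, 32 had a detected share above that of all genes, and 30 to 32 in the alternatives. Probes with a range of 1 or more numbered 27 to 44 under other normalisations or a stricter detection p, and 3 to 28 without single arrays (chosen after seeing the data). Against both transgenic groups, 2353 to 3422 probes passed under other normalisations, filters, priors or weights. Leaving out single arrays gave 2075 to 3191, with 1013 to 1516 higher and 1062 to 1675 lower. Requiring a log2 difference of 1 left 347, 210 higher and 137 lower. SOD1-G93A arrays alone, chosen after seeing the data, gave 1760, with 901 higher and 859 lower. There Slc40a1 turned to -0.14, against 0.33 with both transgenic groups, and Zp3 to 0.078, against -0.37. The cause of these changes was not tested. Of 88 named probes 65 kept their direction and side of the threshold in every alternative run. With the replicate number as a block 2981 probes passed, 1425 higher and 1556 lower. Array numbers share no stated litter or batch.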
